A study of Mus musculus with 8 samples.

Results

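Glycolysis turns glucose into pyruvate and lactate, and many of its genes are also targets of the hypoxia-inducible factors (HIFs), transcription factors whose alpha subunits are marked for destruction when oxygen is plentiful. The 34 genes described here were taken by symbol: 17 glycolytic enzymes, 4 transporters of glucose and lactate, 5 regulators of flux through the pathway, 5 genes of the HIF pathway and 3 targets of HIF. All 34 are among the 23238 gene symbols counted, and 33 of them are among the 13347 genes with enough reads to test. Estrogen makes the uterus of an ovariectomized rodent take up water and glucose and starts growth, and uterine stroma draws on glycolysis when it later differentiates to support implantation.

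The RNA came from uterine stromal cells of ovariectomized mice, which lack the ovarian source of estrogen, of the strain C57BL/6-ICR. There were 4 groups of 2 libraries each: Atg7f/f;Amhr2cre mice, whose genotype is given as Atg7d/d, injected with estradiol (E2), the same genotype given oil, Atg7f/f mice injected with estradiol, and Atg7f/f mice given oil. Atg7 encodes an enzyme needed to form autophagosomes, and both genotypes carry the floxed gene. The groups are called Atg7-deleted and control here. Cre is driven by Amhr2, which is active in the mesenchyme of the female reproductive tract. No group with Cre and an intact Atg7 was analysed, so an effect of Cre itself and of the deletion cannot be told apart. The sources used here do not give the dose, the time after injection, the age or the number of animals behind a library. The p-values therefore speak to the scatter among these libraries, which may be technical.

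Each library held 5458390 to 6951080 reads assigned to genes, and 15527 to 15963 symbols had a read. Levels are given as CPM (reads of a gene relative to the reads of its library) after scaling for composition, and the labels name a QuantSeq kit, a type that mostly reads transcript ends, so levels are compared between samples and not between genes. Atg7 had 4.14 and 3.56 CPM with estradiol and 3.32 and 5.2 CPM with oil in Atg7-deleted stroma, against 2.79 and 3.53 CPM with estradiol and 3.47 and 5.67 CPM with oil in control stroma. The groups overlapped, and since reads can lie outside the deleted exons, this checks no label. Fibroblast markers summed to 2415 to 13781 CPM, but markers of other cells were present in every library: epithelium markers summed to 1639 to 18855 CPM and smooth muscle markers to 2515 to 11034 CPM. In such bulk samples, fewer cells of a type and less RNA per cell cannot be told apart. Epithelium markers differed between libraries of 1 group (11778 and 5121 CPM in Atg7-deleted oil libraries 1 and 2, 18855 and 6516 CPM in control oil libraries 1 and 2).

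Estradiol moved the genes of glycolysis in both directions. Averaged over the genotypes, Aldoa, Tpi1, Gapdh, Pgk1, Pgam1, Pkm and Ldha, enzymes of the lower pathway, rose. The glucose transporters Slc2a1 and Slc2a3, the inducible hexokinase Hk2 and the flux regulator Pfkfb3 fell. In all, 8 of 33 members rose and 10 fell (edgeR adjusted p below 0.05), beside 24.1% of all tested genes that rose and 22.2% that fell, 46.3% in all. Rises and falls among the members were therefore common, but so were they among genes at large. The median log2 fold change of the members was 0.04, beside 0.02 over all genes, so the pathway as a whole had no common direction.

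Within each genotype members also moved both ways, with fewer calls. In Atg7-deleted stroma 6 members rose and 7 fell, beside 13.1% and 11.2% of all genes (24.3% either way). In control stroma 7 rose and 10 fell, beside 15.8% and 14% (29.8% either way). All 13 members called in Atg7-deleted stroma were also called in control stroma, with the same sign. These comparisons share no library, but both take the spread of a gene from all 8 libraries, so their calls are not independent. Of the calls made in Atg7-deleted stroma, 100% recurred in control stroma for members and 83.3% for all genes, and of the calls made in control stroma, 76.5% recurred in Atg7-deleted stroma for members and 67.8% for all genes. The 4 members called in control stroma and not in Atg7-deleted stroma were Hk2, Pfkp, Aldoa and Slc16a1, all with the same sign in both genotypes, and the interaction test of the difference passed for none of them.

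The calls within a genotype rest on 2 libraries against 2. Without Atg7-deleted estradiol library 1, 0 members rose and 2 fell in Atg7-deleted stroma. Without estradiol library 2 the counts were 1 and 2, and without oil library 1 they were 1 and 3. Without oil library 2 they were 1 and 5. In control stroma 4 rose and 3 fell without estradiol library 1, and 1 rose and 4 fell without estradiol library 2. A fit to the control libraries alone called 2 members higher. Slc2a3 and Pfkfb3 passed in all 8 fits that left out 1 library each, in both genotypes, as did Slc2a1 and Pgam1 in control stroma. The averaged effect held better, with 16 of its 18 calls kept in all 8 of those fits. The 2 exceptions were Gapdh (adjusted p = 0.0584) and Slc16a1 (adjusted p = 0.0527), both without Atg7-deleted estradiol library 1. Fold changes are averaged over the genotypes from here on unless a genotype is named.

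**Figure D1:**
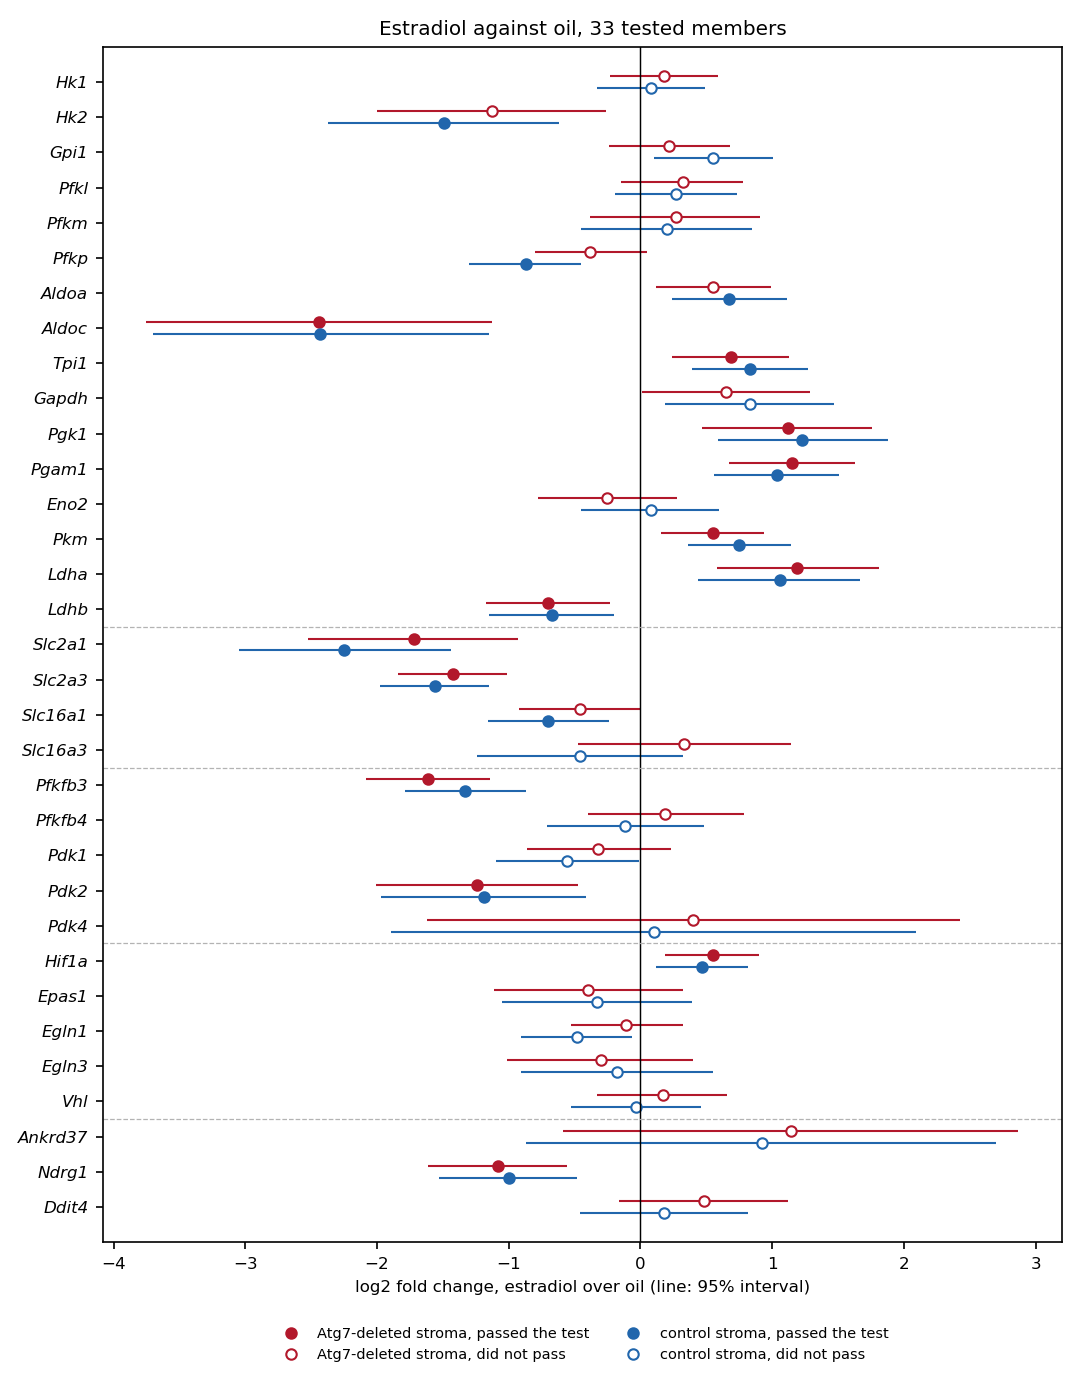
Log2 fold change of estradiol over oil (horizontal axis) for the 33 tested members, in Atg7-deleted stroma (red) and control stroma (blue), with 95% intervals as lines and dashed rules between enzymes, transporters, flux regulators, HIF pathway and HIF targets. Filled points passed the test: Tpi1, Pgk1, Pgam1, Pkm and Ldha lie to the right of 0, glucose transporters, Pfkfb3 and Aldoc to the left, and the genotypes lie close together.

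HIF proteins bind DNA at the letters ACGTG or GCGTG. Promoters of 6 members that moved with estradiol are shown as examples, 3 that fell and 3 that rose. The sequences are from RefSeq on GRCm38.p6, 5′ to 3′ on the strand of the gene and ending at or before the start of transcription. Capitals mark ACGTG or GCGTG on either strand (CACGT and CACGC are the same letters read from the other strand).
Slc2a1, which fell (chr4:119108495-119108710, plus strand): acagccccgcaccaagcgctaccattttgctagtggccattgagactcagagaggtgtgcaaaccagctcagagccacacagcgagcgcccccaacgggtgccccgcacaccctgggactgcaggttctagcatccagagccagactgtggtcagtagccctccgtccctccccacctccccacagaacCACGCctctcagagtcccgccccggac
Hk2, which fell (chr6:82774455-82774704, minus strand): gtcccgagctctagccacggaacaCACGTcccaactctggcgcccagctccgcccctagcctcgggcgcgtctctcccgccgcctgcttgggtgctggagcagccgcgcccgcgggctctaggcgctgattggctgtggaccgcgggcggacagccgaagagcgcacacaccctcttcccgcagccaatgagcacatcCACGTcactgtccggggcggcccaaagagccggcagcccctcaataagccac
Pfkfb3, which fell (chr2:11502102-11502340, minus strand): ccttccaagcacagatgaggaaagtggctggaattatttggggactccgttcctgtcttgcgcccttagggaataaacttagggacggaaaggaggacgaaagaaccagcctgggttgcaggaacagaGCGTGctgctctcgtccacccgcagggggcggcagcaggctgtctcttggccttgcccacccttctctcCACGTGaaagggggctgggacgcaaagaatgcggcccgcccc
Pgk1, which rose (chrX:106186850-106187099, plus strand): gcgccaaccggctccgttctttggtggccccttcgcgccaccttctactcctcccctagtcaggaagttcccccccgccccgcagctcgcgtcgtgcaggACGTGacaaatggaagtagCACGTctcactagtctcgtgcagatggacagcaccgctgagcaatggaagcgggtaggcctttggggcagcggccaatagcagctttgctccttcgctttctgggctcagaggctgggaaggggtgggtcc
Pgam1, which rose (chr19:41911621-41911870, plus strand): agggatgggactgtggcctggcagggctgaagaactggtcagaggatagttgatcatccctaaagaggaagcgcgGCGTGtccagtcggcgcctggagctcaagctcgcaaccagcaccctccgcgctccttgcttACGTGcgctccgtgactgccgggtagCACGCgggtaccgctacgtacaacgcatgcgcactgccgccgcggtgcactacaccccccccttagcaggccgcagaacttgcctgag
Ldha, which rose (chr7:46845554-46845803, plus strand): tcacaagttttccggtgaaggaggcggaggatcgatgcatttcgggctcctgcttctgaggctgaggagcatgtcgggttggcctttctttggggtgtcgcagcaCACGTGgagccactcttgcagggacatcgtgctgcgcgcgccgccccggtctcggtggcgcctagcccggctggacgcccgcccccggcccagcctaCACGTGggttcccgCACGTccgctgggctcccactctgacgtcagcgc

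Each of the 6 windows held at least 1 of the motifs. They are chosen examples and do not show how often the letters occur among members that rose or fell. The Ldha window had 5 matches to ACGTG counted over both strands, where a CACGTG counts on each strand. Pfkfb3 and Ldha have 2 starts each, of which 1 is shown, and for both genes the start shown lies inside the annotated gene. The other Pfkfb3 start had 1 match to ACGTG in its 250 bases, and 0 in the 102 bases before any exon of the gene. The other Ldha start had 1 match to GCGTG. Slc2a1 also had 1 match to ACGTG in its 250 bases, which runs past the end of the window shown and is not marked. Of the 34 members, 31 had a promoter in the table (Slc2a3, Epas1 and Ndrg1 did not), with 45 start sites. Either motif stood within the 250 bases before 35 of those 45 starts, or 77.8%, beside 54.8% of 12887 promoters of tested genes and 38.6% of all 32851 promoters. It was found at 1 or more starts of 6 of 7 members that rose in a genotype, all 8 with a promoter that fell, and 13 of 16 that were called in neither. Of the risers, Tpi1 had no match. A match is a description of the letters and not a bound site.

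Glucose enters the cell through facilitative transporters, and both of those among the members fell after estradiol. Slc2a12, a related transporter that is not among the members, leaned up and did not pass (log2 fold change 0.92 ± 0.40, edgeR adjusted p = 0.0862). Slc2a1, which encodes GLUT1, the basal glucose transporter (chromosome 4, 119108711 to 119137983, plus strand, mm10), had 49.7 and 58.2 CPM with estradiol and 236 and 120 CPM with oil in Atg7-deleted stroma, and 53.8 and 57.5 CPM with estradiol and 337 and 190 CPM with oil in control stroma. Every estradiol library was lower than every oil library, and the oil libraries differed from each other by far more than the estradiol ones. Its log2 fold change was -1.98 ± 0.25 (SE), a 3.95-fold fall (edgeR adjusted p = 0.000395), and -2.18 to -1.69 when 1 library was left out. In Atg7-deleted stroma alone it was -1.72 ± 0.35 (adjusted p = 0.00996), and without oil library 1 it was -1.15 (adjusted p = 0.0586). Leaving out either estradiol library also ended that call (adjusted p = 0.096 and 0.0634).

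Slc2a3, which encodes GLUT3, a transporter with high affinity for glucose (chromosome 6, 122727809 to 122801640, minus strand), had 39.6 and 37.7 CPM with estradiol and 111 and 96.1 CPM with oil in Atg7-deleted stroma, and 29.3 and 32.7 CPM with estradiol and 99.9 and 83.7 CPM with oil in control stroma. The groups were far apart and libraries of a group lay close together. The log2 fold change of -1.49 ± 0.13 (2.82-fold fall, edgeR adjusted p = 8.37e-05) ranged only from -1.57 to -1.42 when 1 library was left out, and it was -1.42 ± 0.18 in Atg7-deleted stroma and -1.56 ± 0.19 in control stroma. It was the smallest adjusted p among the members.

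The lactate transporters among the members moved less. Slc16a1 (MCT1, which carries lactate and pyruvate in either direction) had 64.4 and 73.3 CPM with estradiol and 81.2 and 108 CPM with oil in Atg7-deleted stroma, and 63.8 and 67.3 CPM with estradiol and 94.8 and 118 CPM with oil in control stroma. It fell by 0.58 ± 0.14 on the log2 scale (edgeR adjusted p = 0.00985), and by 0.53 (adjusted p = 0.0527) without Atg7-deleted estradiol library 1. Slc16a3 (MCT4, the exporter of strongly glycolytic cells) had 8.64 and 9.06 CPM with estradiol and 8.38 and 5.67 CPM with oil in Atg7-deleted stroma, and 6.29 and 10.8 CPM with estradiol and 13.3 and 10.1 CPM with oil in control stroma. Its groups overlapped in control stroma, and the averaged log2 fold change was -0.06 ± 0.25 (95% interval -0.63 to 0.50).

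**Figure D2:**
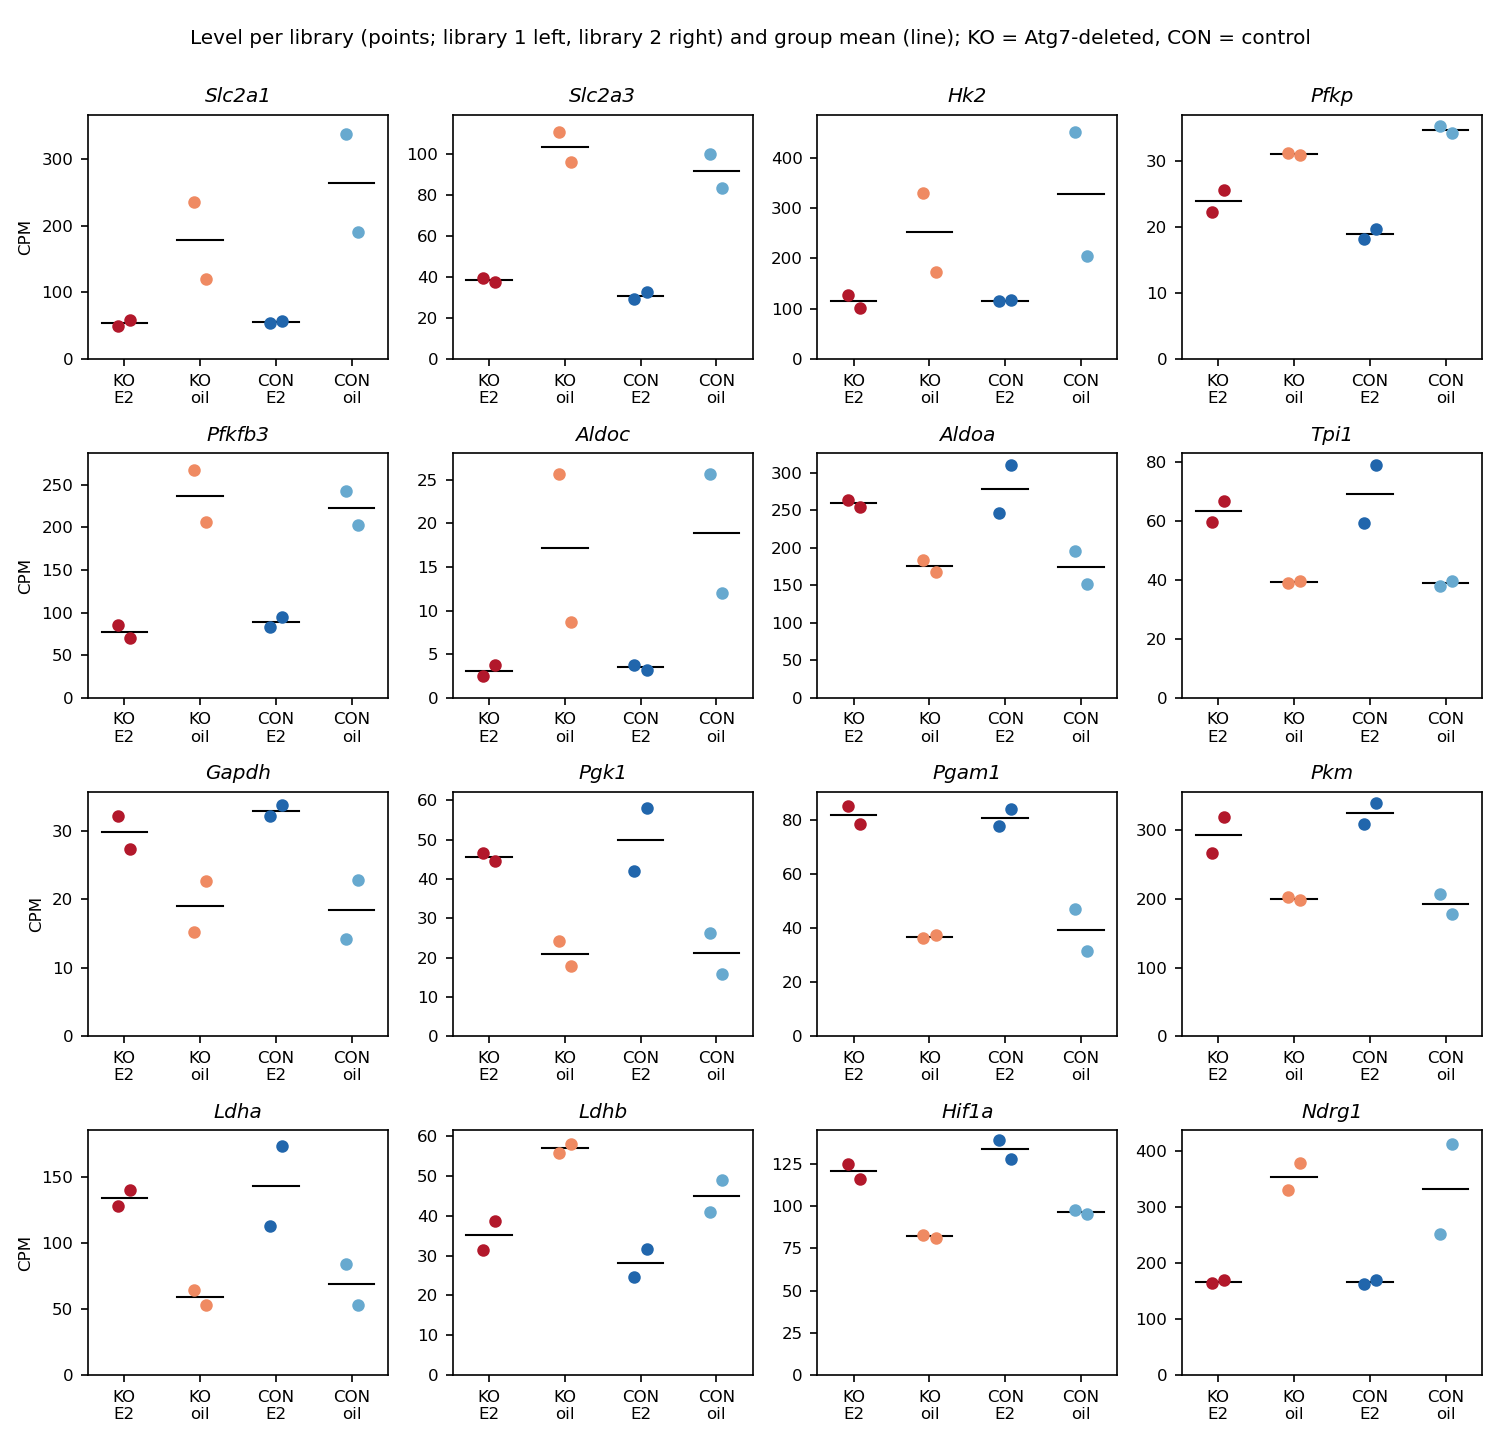
CPM per library (points, library 1 left and library 2 right) and group mean (line) for 16 members, with Atg7-deleted stroma (KO) given estradiol or oil, then control stroma (CON) given estradiol or oil. Slc2a1, Hk2 and Aldoc show a wide gap between the oil libraries of a genotype. Slc2a3 and Pgam1 separate by treatment, with the widest gap within a group of Pgam1 between the control oil libraries.

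Hexokinase traps glucose in the cell, and its forms moved differently. Hk2, the inducible hexokinase bound to mitochondria (chromosome 6, 82725025 to 82774454, minus strand), had 128 and 102 CPM with estradiol and 330 and 173 CPM with oil in Atg7-deleted stroma, and 116 and 117 CPM with estradiol and 450 and 205 CPM with oil in control stroma. Estradiol libraries were all lower than oil libraries, and the oil libraries of a genotype differed more from each other than the lower of them differed from the estradiol libraries. The averaged log2 fold change was -1.31 ± 0.27 (2.48-fold fall, edgeR adjusted p = 0.00439), and -0.96 without control oil library 1. In control stroma alone the value of -1.49 ± 0.39 (adjusted p = 0.0205) became -0.79 (adjusted p = 0.107) without that library and missed the threshold without either estradiol library (adjusted p = 0.112 and 0.0993), and in Atg7-deleted stroma it was -1.13 ± 0.39 (adjusted p = 0.0613). Hk1, the housekeeping form, had 152 to 160 CPM in the 4 estradiol libraries and 124 to 166 CPM in the 4 oil libraries, with a log2 fold change of 0.13 ± 0.13 (95% interval -0.16 to 0.42). The share of Hk2 among Hk1 and Hk2 reads was 40% to 45.2% with estradiol and 58.2% to 73.1% with oil.

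Glucose 6-phosphate isomerase, Gpi1, had 85.6 to 123 CPM with estradiol and 72.1 to 93 CPM with oil, a log2 difference of 0.39 ± 0.14 that missed the threshold (edgeR adjusted p = 0.0516). Of the subunits of phosphofructokinase, which commits sugar to glycolysis, Pfkp, the platelet form, fell. It had 22.3 and 25.6 CPM with estradiol and 31.3 and 30.9 CPM with oil in Atg7-deleted stroma, and 18.2 and 19.8 CPM with estradiol and 35.3 and 34.2 CPM with oil in control stroma. Groups did not overlap, libraries of a group lay close together, and the log2 fold change was -0.62 ± 0.13 (edgeR adjusted p = 0.00473). Within a genotype it was -0.38 ± 0.19 in Atg7-deleted and -0.87 ± 0.19 in control stroma, a difference of 0.50 with a 95% interval of -0.10 to 1.09 and an adjusted interaction p of 1. The liver form Pfkl had 23.1 to 30.2 CPM with estradiol and 19.6 to 25.1 CPM with oil, and the muscle form Pfkm 12.7 to 14.4 CPM and 8.52 to 14 CPM. Neither passed. Pfkp thus made up 29.7% to 40.5% of the reads of the 3 subunits with estradiol and 46.6% to 52.7% with oil.

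The regulator Pfkfb3 fell strongly. The promoter of 1 of its 2 starts is printed above. Pfkfb3 makes the sugar phosphate that activates phosphofructokinase (gene at chromosome 2, 11471433 to 11554077, minus strand). It had 85.1 and 69.7 CPM with estradiol and 267 and 206 CPM with oil in Atg7-deleted stroma, and 82.7 and 94.7 CPM with estradiol and 243 and 203 CPM with oil in control stroma. The highest estradiol library, at 94.7 CPM, was lower than the lowest oil library, at 203 CPM. The log2 fold change was -1.47 ± 0.15 (2.77-fold fall, edgeR adjusted p = 0.000138), with -1.61 ± 0.21 in Atg7-deleted and -1.33 ± 0.20 in control stroma, and all 16 alternative settings kept the call in each genotype. Pfkfb4, a related enzyme, had 14.8 to 18.4 CPM with estradiol and 12.8 to 19.8 CPM with oil (0.04 ± 0.19).

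Pyruvate dehydrogenase kinases inhibit pyruvate dehydrogenase, the enzyme that oxidizes pyruvate inside the mitochondrion. Pdk2, the widely expressed form, had 4.14 and 6.63 CPM with estradiol and 14.7 and 10.9 CPM with oil in Atg7-deleted stroma, and 3.91 and 5.53 CPM with estradiol and 10.6 and 11 CPM with oil in control stroma. It fell by 1.21 ± 0.24 on the log2 scale (2.32-fold, edgeR adjusted p = 0.00357). Pdk1, a known HIF target, had 11.5 to 13.4 CPM with estradiol and 15.3 to 20.2 CPM with oil. Its log2 difference of -0.44 ± 0.17 missed the threshold (adjusted p = 0.0616). Pdk3, a further kinase that is not among the members, went the other way. It rose by 1.14 ± 0.21 (edgeR adjusted p = 0.00221), with 0.97 ± 0.29 in Atg7-deleted and 1.30 ± 0.29 in control stroma (adjusted p = 0.0382 and 0.0116). Pdk4, induced by fasting and glucocorticoids, varied within groups and could not be placed: it had 10.8 and 8.25 CPM with estradiol and 4.11 and 10.2 CPM with oil in Atg7-deleted stroma, and 15.5 and 3.07 CPM with estradiol and 2.05 and 15.6 CPM with oil in control stroma, with an averaged interval of -1.17 to 1.67.

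Of the enzymes below phosphofructokinase, 7 rose, Aldoc and Ldhb fell and Eno2 did not pass. Aldolase A (Aldoa), which splits the sugar into triose phosphates, had 264 and 254 CPM with estradiol and 184 and 168 CPM with oil in Atg7-deleted stroma, and 247 and 310 CPM with estradiol and 196 and 152 CPM with oil in control stroma. It rose by 0.61 ± 0.14 on the log2 scale (edgeR adjusted p = 0.00594). Triose phosphate isomerase (Tpi1) had 59.6 and 66.8 CPM with estradiol and 39 and 39.5 CPM with oil in Atg7-deleted stroma, and 59.4 and 78.8 CPM with estradiol and 37.9 and 39.7 CPM with oil in control stroma. The 4 oil libraries, at 37.9 to 39.7 CPM, lay close together and below every estradiol library, and the rise was 0.76 ± 0.14 (1.69-fold, edgeR adjusted p = 0.00225). Gapdh had 27.3 to 33.7 CPM with estradiol and 14.2 to 22.8 CPM with oil, a rise of 0.74 ± 0.20 (edgeR adjusted p = 0.0143) that missed the threshold without Atg7-deleted estradiol library 1, and near-identical copies make its count uncertain.

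The next enzymes rose about 2-fold. Phosphoglycerate kinase, Pgk1, makes ATP directly (chromosome X, 106187100 to 106203699, plus strand). It had 46.6 and 44.5 CPM with estradiol and 24.2 and 17.8 CPM with oil in Atg7-deleted stroma, and 41.9 and 57.9 CPM with estradiol and 26.3 and 15.9 CPM with oil in control stroma, a rise of 1.18 ± 0.20 on the log2 scale (2.26-fold, edgeR adjusted p = 0.00169). Phosphoglycerate mutase, Pgam1 (chromosome 19, 41911923 to 41918660, plus strand), had 84.9 and 78.3 CPM with estradiol and 36.2 and 37.3 CPM with oil in Atg7-deleted stroma, and 77.5 and 83.8 CPM with estradiol and 46.9 and 31.7 CPM with oil in control stroma. Its estradiol libraries lay within 77.5 to 84.9 CPM and the oil libraries within 31.7 to 46.9 CPM, and the rise of 1.09 ± 0.15 (2.13-fold, edgeR adjusted p = 0.000583) had the smallest adjusted p among the enzymes that rose. Pyruvate kinase, Pkm, which makes pyruvate and ATP, had 267 and 320 CPM with estradiol and 203 and 198 CPM with oil in Atg7-deleted stroma, and 310 and 340 CPM with estradiol and 207 and 179 CPM with oil in control stroma (log2 fold change 0.65 ± 0.12, edgeR adjusted p = 0.00266).

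Transcripts of the 2 lactate dehydrogenase subunits moved in opposite directions. Ldha, whose product favours the making of lactate (chromosome 7, 46841475 to 46855627, plus strand), had 128 and 140 CPM with estradiol and 64.2 and 53.1 CPM with oil in Atg7-deleted stroma, and 113 and 173 CPM with estradiol and 83.9 and 53.1 CPM with oil in control stroma. It rose by 1.12 ± 0.19 on the log2 scale (2.18-fold, edgeR adjusted p = 0.00168). Ldhb, whose product favours the use of lactate (chromosome 6, 142490249 to 142507957, minus strand), had 31.5 and 38.7 CPM with estradiol and 55.8 and 58.1 CPM with oil in Atg7-deleted stroma, and 24.6 and 31.7 CPM with estradiol and 40.9 and 48.9 CPM with oil in control stroma. It fell by 0.69 ± 0.15 on the log2 scale (edgeR adjusted p = 0.00527), with the groups of each genotype apart. Ldhb made up 15.5% to 21.6% of the reads of both genes with estradiol and 32.7% to 52.3% with oil.

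Aldolase C, the form known best from brain, had the largest fold change of the members. Aldoc (chromosome 11, 78322968 to 78327781, plus strand) had 2.52 and 3.72 CPM with estradiol and 25.6 and 8.67 CPM with oil in Atg7-deleted stroma, and 3.77 and 3.23 CPM with estradiol and 25.7 and 12 CPM with oil in control stroma. Oil library 1 was far above oil library 2 in each genotype. The log2 fold change was -2.43 ± 0.41 (edgeR adjusted p = 0.00146) and -1.94 to -2.72 when 1 library was left out. In Atg7-deleted stroma it was -1.46 (adjusted p = 0.111) without oil library 1, against -2.44 with it, and in control stroma -1.74 (adjusted p = 0.0559) without oil library 1, against -2.43 with it. Leaving out either estradiol library also ended the call in each genotype, with adjusted p of 0.133 and 0.0818 in Atg7-deleted and 0.0779 and 0.0819 in control stroma. Aldoc was 0.947% to 1.51% of aldolase reads with estradiol and 4.91% to 12.2% with oil.

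**Figure D3:**
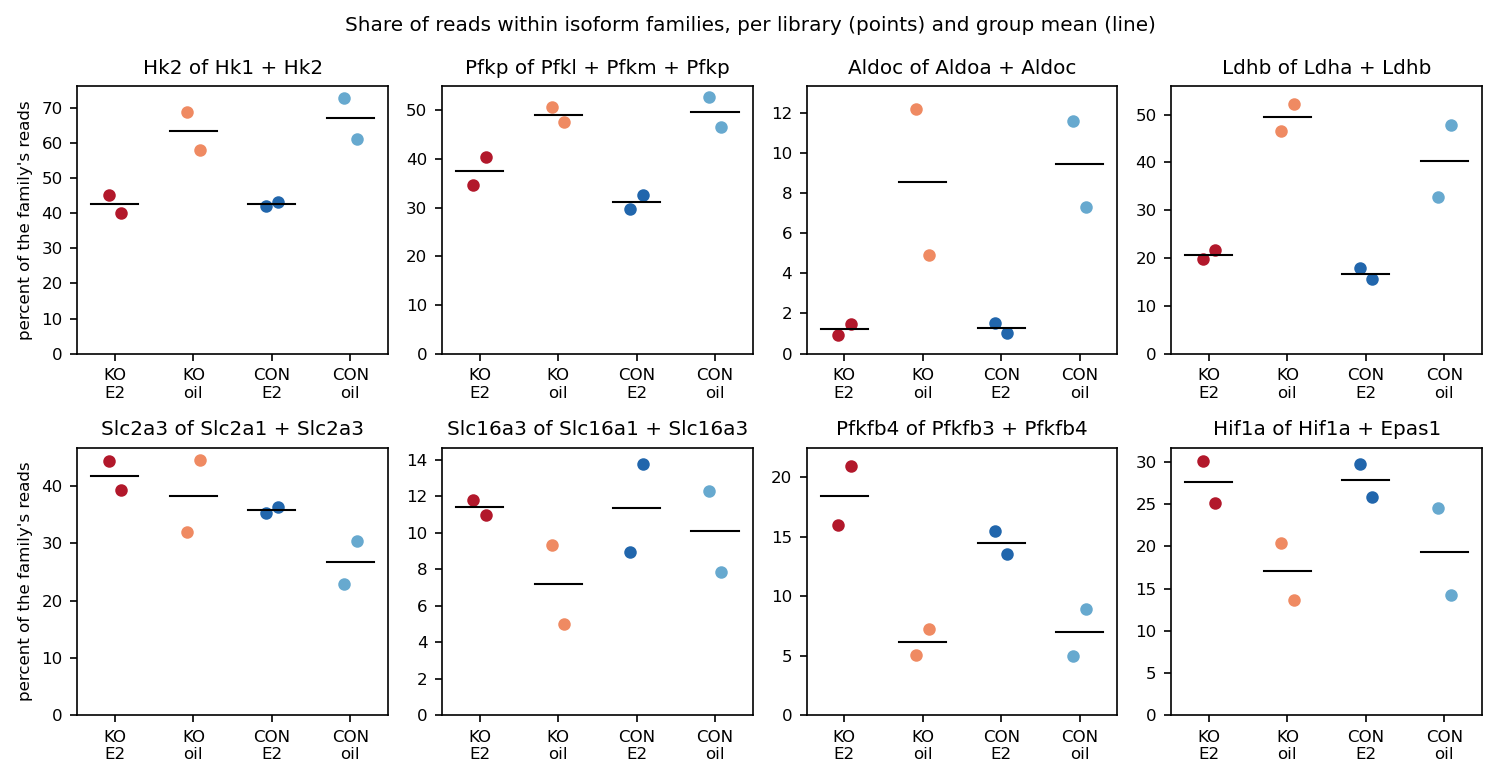
Percent of reads within each isoform family per library (points) and group mean (line), for Atg7-deleted stroma (KO) and control stroma (CON) given estradiol or oil. Hk2, Pfkp, Aldoc and Ldhb take a smaller share and Pfkfb4 and Hif1a a larger one in all 4 estradiol libraries than in all 4 oil libraries, while the shares of Slc2a3 and Slc16a3 overlap.

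Shares count reads and not molecules, and they restate the levels within a family. Pfkfb4 was 13.5% to 20.9% of Pfkfb3 and Pfkfb4 reads with estradiol and 4.99% to 8.92% with oil, through the fall of Pfkfb3. Slc2a3 was 35.3% to 44.4% of the glucose transporter pair with estradiol and 22.9% to 44.6% with oil, so the balance of GLUT1 and GLUT3 reads was not separable by treatment. The shares of Slc16a3 among lactate transporters and of each kinase among Pdk1, Pdk2 and Pdk4 also overlapped.

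Enolase could be followed only in part. Eno1, the ubiquitous form, is listed at 0 in all 8 libraries. The gene Eno1b, with at least 98% identity to Eno1 over 1736 bases, held 678 reads in all. It had 20.7 and 17.1 CPM with estradiol and 7.43 and 10.6 CPM with oil in Atg7-deleted stroma, and 21.8 and 17.5 CPM with estradiol and 4.89 and 7.44 CPM with oil in control stroma (log2 fold change 1.37 ± 0.22, edgeR adjusted p = 0.00116). How reads with several matches were assigned is not given in the sources used here, so the level of Eno1 is unknown and neither gene stands for the other. Gapdh has 41 other annotated genes with such matches, Pgk1 has 3, and Gpi1, Pgam1, Pkm, Ldhb and Pdk4 have 1 each, so their counts are uncertain in the same way. The match of Pdk4 is 101 bases of Cflar, which held 7897 reads, against 434 for Pdk4. Tpi1, Gapdh, Pfkm, Pfkp, Aldoa, Hk1 and Ankrd37 also overlap a counted gene on the opposite strand, and whether counting used strand is not given, so reads of such partners cannot be told apart. For Ankrd37 the partner Ufsp2 held 3882 reads, against 148 for Ankrd37. Eno2, the neuronal form, had 17.3 to 23.9 CPM with estradiol and 18.6 to 23.8 CPM with oil and did not pass (-0.09 ± 0.17).

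Among genes of the HIF pathway, 1 of 5 moved. Hif1a, the oxygen-regulated subunit of HIF-1 (chromosome 12, 73901375 to 73947530, plus strand), had 125 and 116 CPM with estradiol and 83.1 and 81.3 CPM with oil in Atg7-deleted stroma, and 139 and 128 CPM with estradiol and 97.7 and 95.2 CPM with oil in control stroma. All estradiol libraries were above all oil libraries with little spread, and the rise was 0.51 ± 0.11 on the log2 scale (1.42-fold, edgeR adjusted p = 0.00531). When 1 library was left out, the call within Atg7-deleted stroma was lost in 6 of 8 fits (values of 0.50 to 0.61, adjusted p up to 0.185) and that within control stroma in all 8 (0.42 to 0.53, adjusted p up to 0.21). DESeq2 called it in neither genotype (adjusted p = 0.0656 and 0.114). Epas1, the related HIF-2 subunit, had 290 and 346 CPM with estradiol and 324 and 512 CPM with oil in Atg7-deleted stroma, and 328 and 368 CPM with estradiol and 299 and 576 CPM with oil in control stroma. Its groups overlapped (-0.36 ± 0.22, 95% interval -0.87 to 0.14). HIF-1 activity is set mainly at the protein level, which was not measured.

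The oxygen sensors that hydroxylate HIF did not pass either. Egln1 (PHD2) had 49 to 66 CPM with estradiol and 62.1 to 78.9 CPM with oil (-0.30 ± 0.13, edgeR adjusted p = 0.0961), and Egln3 (PHD3), itself induced by HIF, had 6.15 to 10 CPM and 6.63 to 12.6 CPM (-0.24 ± 0.22). Vhl, which tags hydroxylated HIF for destruction, had 16.4 to 19.6 CPM with estradiol and 15.5 to 18.8 CPM with oil (0.07 ± 0.15, 95% interval -0.28 to 0.42).

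The 3 further HIF targets went separate ways. Ndrg1, a stress-responsive gene (chromosome 15, 66929318 to 66969640, minus strand), had 164 and 169 CPM with estradiol and 329 and 377 CPM with oil in Atg7-deleted stroma, and 162 and 169 CPM with estradiol and 252 and 411 CPM with oil in control stroma. It fell 2.06-fold (log2 fold change -1.04 ± 0.16, edgeR adjusted p = 0.00112). In control stroma the log2 fold change ranged from -1.29 to -0.64 when 1 library was left out, and the value of -0.64 was without oil library 2. Ankrd37, an ankyrin repeat gene, had 3.24 and 5.82 CPM with estradiol and 0.948 and 3.15 CPM with oil in Atg7-deleted stroma, and 4.61 and 2.15 CPM with estradiol and 0.631 and 3.01 CPM with oil in control stroma. That is few reads, and its log2 difference of 1.03 ± 0.55 did not pass (adjusted p = 0.153). Ddit4 (REDD1), an inhibitor of mTOR signalling, had 286 to 476 CPM with estradiol and 245 to 381 CPM with oil (0.33 ± 0.20).

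Between oil libraries of a genotype, some genes had the order of the epithelium markers and some did not, among those that fell and those that rose. The epithelium sum was 1639 and 2203 CPM with estradiol and 11778 and 5121 CPM with oil in Atg7-deleted stroma, and 1639 and 3269 CPM with estradiol and 18855 and 6516 CPM with oil in control stroma. All 22 markers were detected, none was at 0 in all libraries, and averaged over the genotypes 13 of 21 tested fell while 1 rose. Hk2, Slc2a1 and Aldoc were higher in oil library 1 than in oil library 2 of each genotype, by 1.9 and 2.2 times for Hk2 and 2.95 and 2.14 times for Aldoc in Atg7-deleted and control stroma, as the epithelium sum was. Arnt2, Vegfa and Mlxipl, described below, showed the same order. Slc2a3 and Pfkfb3 had the same order with smaller gaps, and Ndrg1 had the opposite order. Of the members that rose, Pgk1 (1.36 and 1.65 times) and Ldha (1.21 and 1.58 times) were also higher in oil library 1. Aldoa, Pkm and Hif1a had that order with smaller gaps. Gapdh and Tpi1 had the opposite order, and Pgam1 had a different order in each genotype. With estradiol the epithelium sum was higher in library 2 of each genotype, and Hk2, Slc2a1 and Aldoc followed this only in part. Slc2a1 was higher in library 2 (49.7 and 58.2 CPM in Atg7-deleted, 53.8 and 57.5 CPM in control stroma). Hk2 had 128 and 102 CPM, and 116 and 117 CPM. Aldoc had 2.52 and 3.72 CPM, and 3.77 and 3.23 CPM. Fibroblast markers summed to 13781 and 11978 CPM with estradiol and 2929 and 3671 CPM with oil in Atg7-deleted stroma, and 13543 and 9484 CPM with estradiol and 2415 and 3023 CPM with oil in control stroma. Averaged over the genotypes, 13 of 16 fibroblast markers rose and 1, Dcn, fell. Of 12 smooth muscle markers, 6 rose and 2 fell, beside 24.1% of all tested genes that rose and 22.2% that fell. The sum of smooth muscle markers was also higher with estradiol (9594 and 11034 CPM, against 4729 and 6224 CPM with oil, in Atg7-deleted stroma, and 8602 and 9825 CPM, against 2515 and 5193 CPM with oil, in control stroma). The part of these markers in the changes of the members was not tested.

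**Figure D4:**
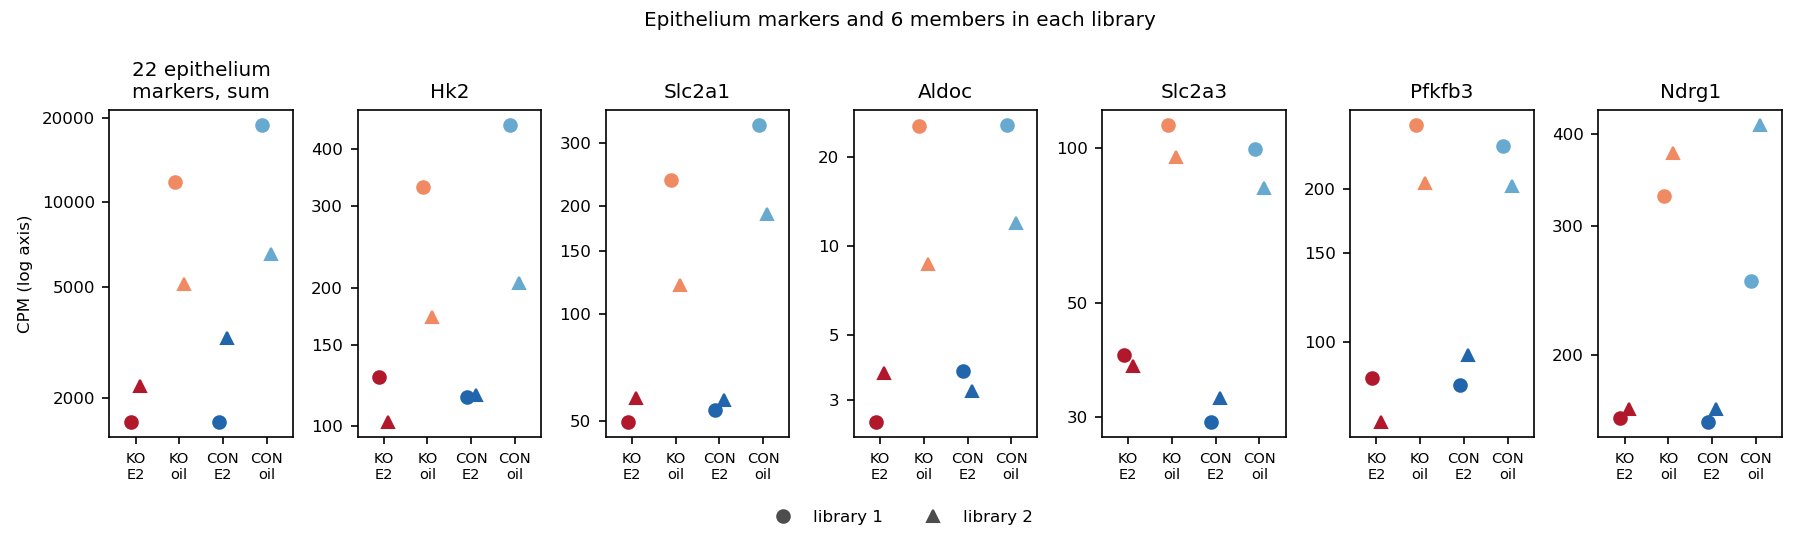
Summed CPM of 22 epithelium markers (left) and CPM of 6 members in each library on log axes, with circles for library 1 and triangles for library 2, in Atg7-deleted stroma (KO) and control stroma (CON) given estradiol or oil. Among oil libraries, Hk2, Slc2a1 and Aldoc are well above in library 1, as the epithelium sum is, Slc2a3 and Pfkfb3 differ little, and Ndrg1 is higher in library 2.

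Deletion of Atg7 gave no call among the members. By edgeR, 0 of 33 passed in oil, after estradiol, averaged over treatments, or in the interaction, and 0 had an unadjusted p below 0.05 in any of these. DESeq2 also called 0 members. The background was 0% in each of the 4 comparisons, with 339, 403, 543 and 210 of 13347 genes at an unadjusted p below 0.05 in oil, after estradiol, averaged and in the interaction. Log2 fold changes of deletion over control ran from -0.73 (Slc16a3) to 0.53 (Egln3) in oil and from -0.21 (Gpi1) to 0.42 (Ankrd37) after estradiol, with a median SE of 0.23 in each.

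With 2 libraries a group, the lack of a call does not show that the deletion left a member unchanged, and the intervals give the sizes that remain possible. In oil, Pgam1 had an interval of -0.58 to 0.39 and Pkm -0.33 to 0.45, and after estradiol Slc2a3 had 0.32 with an interval of -0.10 to 0.73 and Hif1a -0.15 with -0.50 to 0.20. Slc2a1 in oil had -0.57 with an interval of -1.33 to 0.20, with 236 and 120 CPM in Atg7-deleted and 337 and 190 CPM in control stroma. Slc16a3 had 8.38 and 5.67 CPM in Atg7-deleted oil libraries and 13.3 and 10.1 CPM in control oil libraries, without overlap, at -0.73 ± 0.35 (adjusted p = 1). For Pdk4, Ankrd37 and Aldoc the intervals reached 1 or more on each side in both treatments, so differences of that size remain possible in either direction. Ldhb was higher in Atg7-deleted stroma in both treatments, by 0.32 ± 0.21 after estradiol and 0.35 ± 0.21 in oil, and did not pass (adjusted p = 1 in each).

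The effect of estradiol was not shown to differ between genotypes for any member. Interaction values ran from -0.34 (Gpi1) to 0.79 (Slc16a3), with a median SE of 0.33. For Slc2a1 the interaction was 0.52 with an interval of -0.57 to 1.62, for Pfkfb3 -0.28 with -0.93 to 0.36, and for Pgk1 -0.12 with -1.02 to 0.79. Of the 33 members, 29 had the same sign of the estradiol effect in both genotypes, 87.9% beside 85.9% of all tested genes.

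**Figure D5:**
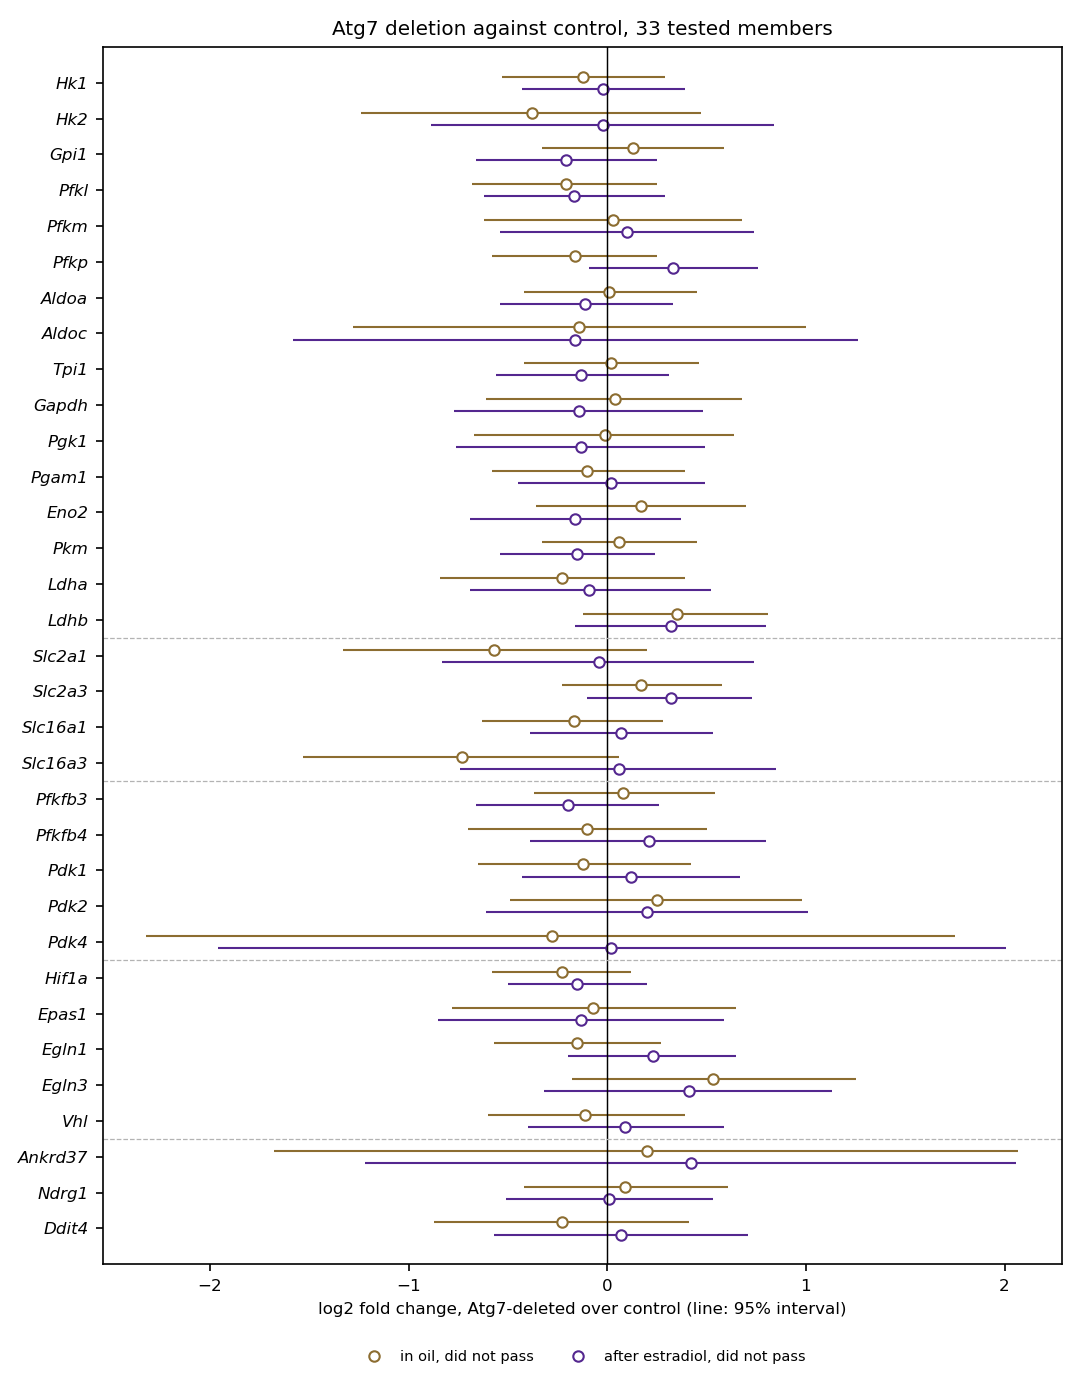
Log2 fold change of Atg7-deleted over control stroma (horizontal axis) for the 33 tested members in oil (brown) and after estradiol (purple), with 95% intervals as lines. No member passed, so all points are open, and most lie within 0.5 of 0.

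Genes that surround glycolysis were followed in further lists, whose choice, like that of the members, was made with earlier results of these data known. Their counts stand beside 13.1% of all tested genes that rose and 11.2% that fell in Atg7-deleted stroma, and 15.8% that rose and 14% that fell in control stroma. Of 8 tested genes of the pentose phosphate pathway, which makes NADPH and ribose from glucose 6-phosphate, 6 rose in Atg7-deleted and 7 in control stroma and 0 fell, with medians of 1.02 and 1.07 beside 0.02 and 0.01 over all genes. Pgd, an enzyme that yields NADPH, had 346 and 335 CPM with estradiol and 153 and 127 CPM with oil in Atg7-deleted stroma, and 270 and 308 CPM with estradiol and 188 and 107 CPM with oil in control stroma. G6pdx, the entry enzyme, rose by 1.35 ± 0.31 in Atg7-deleted and 1.49 ± 0.31 in control stroma (edgeR adjusted p = 0.0147 and 0.00808).

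Of 20 tested genes of the citric acid cycle, which oxidizes what glycolysis delivers, 13 rose in Atg7-deleted and 14 in control stroma and 0 fell, with medians of 0.83 and 0.92. The other 7 in Atg7-deleted and 6 in control stroma did not pass. Cs, citrate synthase, had 134 and 149 CPM with estradiol and 58.6 and 54.4 CPM with oil in Atg7-deleted stroma, and 140 and 148 CPM with estradiol and 47.6 and 53.8 CPM with oil in control stroma. The list also counts Idh1, the cytosolic isocitrate dehydrogenase, which works outside the mitochondrial cycle. Idh1 rose by 2.32 ± 0.27 and 2.24 ± 0.27 (edgeR adjusted p = 0.00137 and 0.0011). Of 11 genes of pyruvate entry to mitochondria, 4 rose and 1 fell in Atg7-deleted stroma and 4 rose and 2 fell in control stroma. Mpc1, a subunit of the pyruvate carrier, rose by 1.05 ± 0.33 and 1.30 ± 0.34, and Pdp2, the phosphatase that opposes the Pdk kinases, fell by 0.92 ± 0.17 and 0.75 ± 0.17 (in Atg7-deleted and control stroma, each with an edgeR adjusted p below 0.05).

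Storage and other sugars were mixed. Of 21 genes of glycogen and hexose handling, 8 rose and 2 fell in Atg7-deleted and 6 rose and 2 fell in control stroma. Sord, sorbitol dehydrogenase, had 16.9 and 16.8 CPM with estradiol and 64.5 and 46.2 CPM with oil in Atg7-deleted stroma, and 9.64 and 15.8 CPM with estradiol and 68.8 and 49 CPM with oil in control stroma. Of 11 other glycolysis genes 1 rose in each genotype, Minpp1, a phosphatase of inositol phosphates and of bisphosphoglycerate, and 0 fell. Of 5 gluconeogenesis genes 0 rose in Atg7-deleted and 2 in control stroma, and 0 fell.

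Of 45 further HIF targets tested, 10 rose and 8 fell in Atg7-deleted stroma, where 13.1% and 11.2% of all genes did, and 10 rose and 10 fell in control stroma, where 15.8% and 14% of all genes did, with medians of -0.15 and -0.12. Car12, a membrane carbonic anhydrase, had 180 and 136 CPM with estradiol and 9.17 and 8.67 CPM with oil in Atg7-deleted stroma, and 123 and 150 CPM with estradiol and 10.1 and 7.97 CPM with oil in control stroma. Vegfa, the angiogenic factor, had 137 and 148 CPM with estradiol and 457 and 378 CPM with oil in Atg7-deleted stroma, and 142 and 122 CPM with estradiol and 700 and 420 CPM with oil in control stroma. Of 19 other HIF pathway genes, 2 rose and 4 fell in Atg7-deleted and 3 rose and 4 fell in control stroma, beside the same shares over all genes. Tceb2 (elongin B, of the Vhl complex) rose by 1.08 ± 0.12 averaged over the genotypes (edgeR adjusted p = 0.000199). Arnt2, a partner of HIF alpha subunits, had 7.38 and 12.3 CPM with estradiol and 95.8 and 37.2 CPM with oil in Atg7-deleted stroma, and 8.24 and 12.1 CPM with estradiol and 107 and 44.6 CPM with oil in control stroma.

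Of 17 genes induced by glucocorticoids or stress, 1 rose and 8 fell in Atg7-deleted and 1 rose and 9 fell in control stroma, with medians of -0.93 and -0.87. Mt1, a metallothionein, had 195 and 185 CPM with estradiol and 715 and 531 CPM with oil in Atg7-deleted stroma, and 185 and 207 CPM with estradiol and 837 and 657 CPM with oil in control stroma. Atf3, Mt2, Chac1 and Ddit3 fell in both genotypes. Of 21 regulators of glycolytic genes, 2 rose and 3 fell in Atg7-deleted and 3 rose and 3 fell in control stroma, near the shares over all genes (13.1% and 11.2%, and 15.8% and 14%). Mlxipl (ChREBP, a glucose-sensing transcription factor) had 1.08 and 0.485 CPM with estradiol and 5.69 and 3.78 CPM with oil in Atg7-deleted stroma, and 0.279 and 0.307 CPM with estradiol and 6.15 and 3.89 CPM with oil in control stroma, which are few reads. Esrra rose by 1.01 ± 0.26 and 0.78 ± 0.26 (edgeR adjusted p = 0.0214 and 0.0459). In none of these lists was a gene called for the deletion or the interaction.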

How the data were processed

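RNA of 8 libraries of uterine stromal cells was deposited as raw read counts per gene symbol. The authors made these counts from 500 ng of total RNA per library with a Lexogen QuantSeq kit, per the labels' protocols. Bowtie2, edgeR and the build mm10 appear in the submitters' processing notes. The sources used here do not give the counter, annotation, strand setting or treatment of reads with several matches. Where a symbol stood on several lines (35 symbols, none a member), only its line with most reads was used, which left out 0.0973% of the counts.

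Genes were kept by filterByExpr (minimum count 10, minimum total 15), which left 13347, and tested with edgeR 4.0.16 (R 4.3.3): TMM factors, 1 mean per group over all 8 libraries and quasi-likelihood F tests, with Benjamini-Hochberg adjustment over all tested genes at 0.05. The SE is the log2 fold change divided by the square root of F, and intervals are 95%. CPM use TMM-scaled totals. The procedure was tested on simulated data. Alternatives were RLE factors, library totals, no filter, DESeq2 1.42.0, the replicate number as a block, summed duplicate lines, only the groups compared and each library left out in turn. A fit with 1 library left in a group assumes that it varies like the other groups.

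All 34 members are named. Of other lists, up to 4 genes with the smallest adjusted p per estradiol comparison could be named. Members and lists were chosen with earlier results of these data known. Gene positions are from GENCODE M21 (mm10). Copies were sought with BLAST at 98% identity over 100 bases. Intervals cover the spread between libraries and not the sources of error that all libraries share.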

Additional observations from a re-analysis of the deposited data

How the results depend on the processing

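No call reversed under any alternative, and the 25 changes of sign in the 3 estradiol comparisons were all among values that passed no test. Changes of sign were not counted for the deletion and the interaction, where no member was called. The number of members that rose in Atg7-deleted stroma was 6 and ranged from 0 to 7 when 1 library was left out, and the number that fell was 7 and ranged from 2 to 8. In control stroma 7 rose, with a range of 1 to 7, and 10 fell, with a range of 3 to 9. With only the groups compared, 2 rose in control stroma. Averaged over the genotypes, 7 to 9 rose and 9 to 12 fell. Over all genes, 3242 were called in Atg7-deleted stroma, with 740 to 4345 when 1 library was left out, and 3978 in control stroma, with 1505 to 4168, and 2305 with only the groups compared. DESeq2 called 4 members higher and 8 lower in Atg7-deleted stroma and 6 and 10 in control stroma. The labels do not say that replicate numbers pair samples, and same-numbered libraries deviated together in some pairs of groups (correlation 0.494 between Atg7-deleted oil and control oil) and not in others (-0.231 between control estradiol and control oil). With the replicate block, 5 rose and 8 fell in Atg7-deleted stroma, 8 and 10 in control stroma and 9 and 10 averaged. With the pairing crossed between groups that deviated in opposite ways, an alternative chosen after seeing the data, the counts were 8 and 8, 9 and 10, and 9 and 11. Leaving out 1 of 2 libraries of a group leaves few degrees of freedom. Ankrd37 had few reads (148 in all), and Pdk4 differed widely between libraries of a group.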
